A study of Mus musculus with 6 samples.

Results

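The ephrin, semaphorin, plexin and netrin families are the guidance genes, ligands and receptors through which neighbouring cells attract, repel or sort from each other. They were taken by gene symbol as every Eph receptor, ephrin, semaphorin of classes 3 to 7, plexin, neuropilin, netrin, Unc5, Slit and Robo gene, which gave 68 of the 23420 genes in the count table, 35 ligands and 33 receptors. Their mRNA was measured in 6 libraries of mouse epidermal keratinocytes, the epithelial cells of the outer skin, to compare cells with and without induced deletion of the transcription factor gene Gata6. All 6 carried loxP-flanked Gata6 alleles (Gata6 fl/fl). The 3 libraries labelled iKO (K14CreERT2+;Gata6 fl/fl) also carried CreERT2, a recombinase that works once tamoxifen is given, under the promoter of keratin 14, a gene of basal keratinocytes, and the 3 libraries labelled WT (K14CreERT2-;Gata6 fl/fl) did not, so that WT here means floxed cells without Cre. Cells of both groups were at passage 8 to 10, were kept in low-calcium medium and received 1 µM 4-hydroxytamoxifen for 6 hours. Libraries are named by their label and number (WT 2, WT 3, WT 4, iKO 3, iKO 4 and iKO 33, whose number is in no sample title).

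Eph receptors are receptor tyrosine kinases that bind ephrins held on the surface of the next cell, and signals run into both cells. EphA receptors mainly bind the lipid-anchored ephrin-A ligands and EphB receptors the transmembrane ephrin-B ligands. Secreted class 3 semaphorins bind neuropilins that work with class A plexins, while class 4 semaphorins bind class B plexins directly. Netrins act through Dcc, neogenin and Unc5 receptors, and Slits through Robo receptors. In skin these families are known from the patterning of nerves and vessels and from keratinocyte migration, adhesion and differentiation.

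The libraries held 21943467 to 83337263 counts on genes. The gene the study deleted did not follow the labels: Gata6 stood at 0.519 to 5.37 normalised CPM (counts on a gene relative to all counts on genes, scaled between libraries) in the libraries labelled WT and at 14.2 to 21 in those labelled iKO, so directions below are those of the labels. These counts per gene do not show whether the floxed exons were lost. Sex-linked genes also separated the groups. Xist, of the inactive X chromosome, measured 605 to 889 CPM in the libraries labelled WT and 0.0824 to 2.62 in those labelled iKO, and the Y-linked Eif2s3y at most 0.0507 against 33.7 to 53.9, so sex and genotype label cannot be told apart here. Reads that did not align uniquely made up 29.5% to 30.5% of counts in the libraries labelled WT and 21.7% to 26.5% in those labelled iKO, and their part in the results was not tested. No label states that the 3 libraries of a group were grown or collected separately, so p-values measure only how far these libraries differ from each other, and that may be technical. Of the 8 keratinocyte markers, the keratin gene Krt5 stood at 14700 to 23600 CPM, 6 overlapped between groups and 2 did not. Trp63, a transcription factor of basal keratinocytes, was at 307 to 331 CPM in the libraries labelled WT and 191 to 205 in those labelled iKO (-0.68 on the log2 scale, edgeR adjusted p = 0.0529; DESeq2 adjusted p = 9.65e-09). The E-cadherin gene Cdh1 was at 419 to 442 against 563 to 725 CPM (0.55, edgeR adjusted p = 0.13; DESeq2 adjusted p = 0.00467). Of the 8 fibroblast markers, Dcn and Lum had no count and the summed level was at most 3.38 CPM in any library. Of the 8 endothelial markers, Emcn and Cldn5 had no count and Cdh5 reached 0.0222 CPM. Kdr (5.85 to 16.7 CPM) and Pecam1 (1.15 to 3.18 CPM) made up most of the sum. That sum was 9.45 to 19.1 CPM in the libraries labelled WT and 7.39 to 9.11 in those labelled iKO. Of the 8 neuronal, Schwann cell and glial markers, Elavl4 had no count and Sox10 reached 0.0235 CPM, and Tubb3 and Mbp made up most of the sum of 246 to 456 and 283 to 498 CPM. Gap43, a growth cone gene of the same list, was at 0.152 to 0.682 against 1.44 to 5.24 CPM, without overlap (3.27 on the log2 scale, edgeR adjusted p = 0.121; DESeq2 adjusted p = 0.000272). Mbp was lower without overlap, at 91.7 to 104 against 67.3 to 90.7 CPM (-0.27, edgeR adjusted p = 0.428; DESeq2 adjusted p = 0.456). The 6 melanocyte markers, mostly Tyr and Mitf, summed to 6.08 to 11.9 CPM in the libraries labelled WT and 5.69 to 8.45 in those labelled iKO. The part of these markers in the results was not tested. The immune markers summed to at most 0.199 CPM.

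These keratinocytes expressed Eph receptors, ephrins, semaphorins and plexins at similar summed levels per kb, less of the neuropilins and of netrin-4, and least of the Unc5, Slit and Robo families. Of the 68 members, 45 had enough counts to be tested. The 23 others were read at most 81 times over the 6 libraries together, and 18 of them at most 20 times. Among the tested members, 8 averaged at least 100 CPM and 7 under 1 CPM.

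Per kb of exon, the most abundant member was Sema3c, a secreted semaphorin, at a mean of 63.9 CPM per kb. Next came Plxnb2, a receptor of class 4 semaphorins, at 49.1 CPM per kb, and Sema3c was above it in 5 of 6 libraries. Epha2, the main EphA receptor of epithelial cells, stood at 40.1 and Efnb1, the ephrin-B1 ligand, at 40 CPM per kb. The order of these neighbours followed the label. Efnb1 was the higher one in the 3 libraries labelled WT (means of 40 against 31.9 CPM per kb). Epha2 was the higher one in the 3 labelled iKO (48.2 against 40). Efnb1 was above Epha1 (29.9 CPM per kb), and Epha1 above Plxna1 (21.9), in 6 of 6 libraries. Below them Plxna1 was above Efna4 (19.2) in 4 of 6, and Efna4 above Sema3f (19.2) in 3 of 6. Exons of Plxna1 (10.7%), Efna4 (10.5%), Efna3 (14.1%), Epha1 (6.01%), Sema4c (7.27%) and Plxnb1 (2.68%) overlap those of another GENCODE gene over the share of exon length given, and the reads of such pairs cannot be told apart without strand, so their values are less certain.

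**Figure D1:**
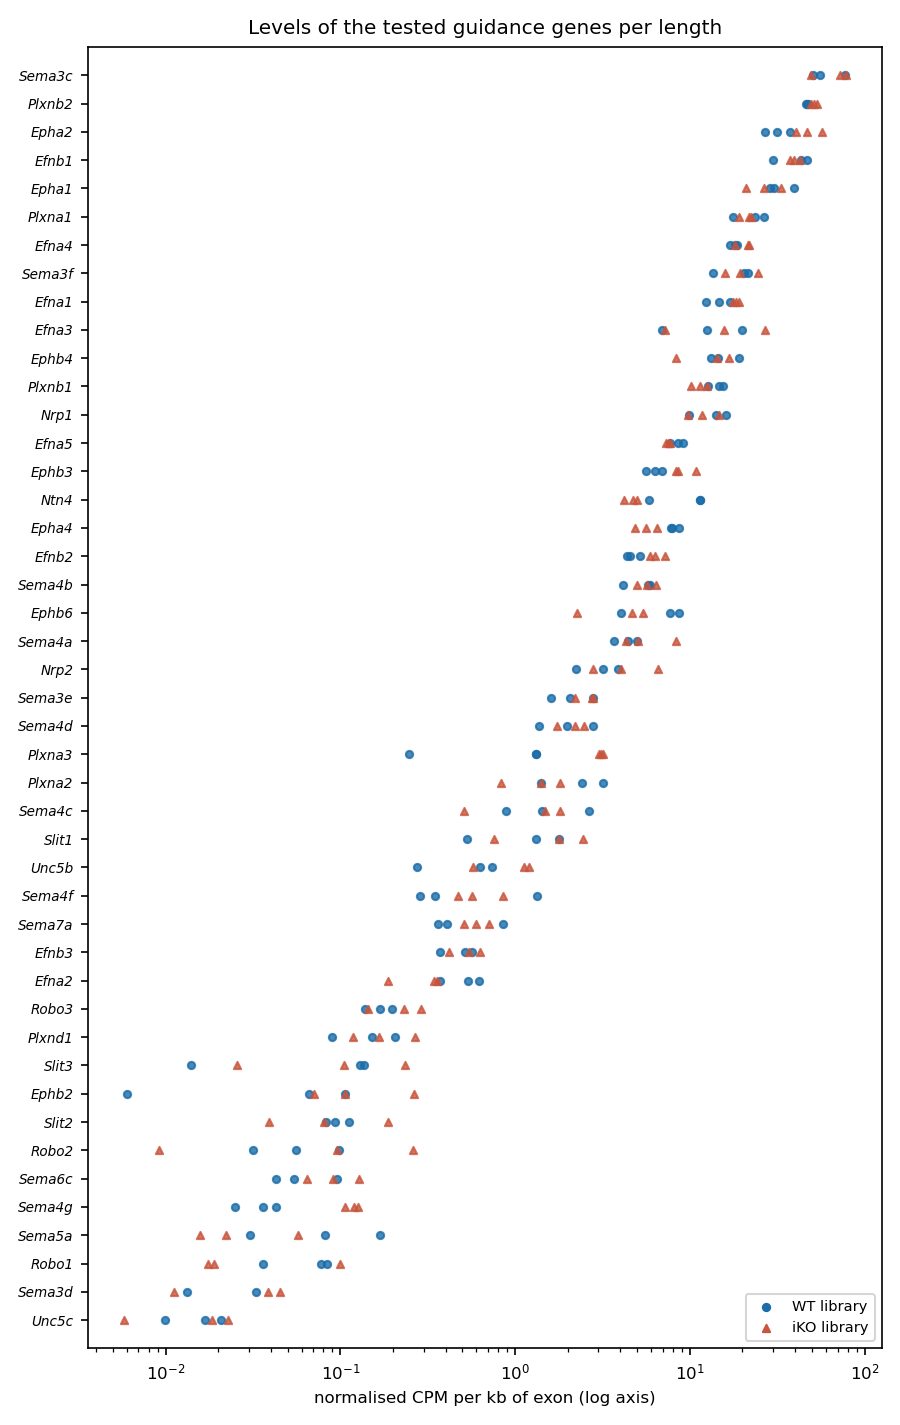
Level of each of the 45 tested guidance genes in each library, as normalised CPM per kb of exon on a log axis; circles are libraries labelled WT, triangles those labelled iKO, and a library with no count has no point. Sema3c, Plxnb2, Epha2 and Efnb1 lie at the top, and the Robo genes, Slit2, Slit3 and Unc5c near the bottom.

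A single gene led most families in summed level per kb. Sema3c made up 63.1% of the semaphorins and Sema3f another 19%, Plxnb2 made up 55.8% of the plexins, and Nrp1, a co-receptor of class 3 semaphorins, made up 77% of the neuropilins. Ntn4, the laminin-binding netrin-4, made up 99.7% of the netrins, Unc5b 96.3% of the Unc5 receptors and Slit1 87.4% of the Slits. The Eph receptors (Epha2 38.3%, Epha1 28.6%) and ephrins (Efnb1 38.1%, Efna4 18.3%) were spread over more members. Summed over a family, the plexins stood at 87.3 ± 4.96 CPM per kb in the libraries labelled WT and 88.4 ± 4.61 in those labelled iKO (SD, n = 3). The Eph receptors summed to 102 ± 8.01 and 108 ± 8.57, the ephrins to 99.9 ± 3.97 and 110 ± 9.24 and the semaphorins to 96.7 ± 7.95 and 106 ± 15.1 CPM per kb. The netrin sum was 9.55 ± 3.25 against 4.67 ± 0.396 CPM per kb, which is the Ntn4 difference described below. The Slits (1.4 ± 0.69 and 1.88 ± 0.906) and Robo receptors (0.296 ± 0.0605 and 0.393 ± 0.177) were far lower.

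Several classic guidance genes were at or near the limit of counting. Epha10 and Ntn5 had no count in any library, where 3 counts over all 6 libraries would be 0.0101 CPM, a limit that covers counting error only. Ntn1, the founding netrin, had 28 counts in all, and its receptor gene Dcc reached 0.16 CPM in its highest library. Epha3, Epha8, Plxna4, Plxnb3, Plxnc1, Robo4, Sema3a, Sema3g and Sema5b had between 1 and 9 counts each. The remaining members that were not tested were Epha5, Epha6, Epha7, Ephb1, Ntn3, Sema3b, Sema6a, Sema6b, Sema6d, Unc5a and Unc5d.

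No guidance gene passed the test between the groups. In edgeR's quasi-likelihood test 0 of the 45 tested members had an adjusted p under 0.05, against 0.339% of all tested genes. An unadjusted p under 0.05 was reached by 8 members, a share of 17.8% against 15% of all tested genes. Of these 8, 5 were higher under the label iKO (11.1% of the 45, against 7.32% of all tested genes). The other 3 were lower (6.67% of the 45, against 7.7%). DESeq2 called 7 of the 45, against 6.12% of all genes, and limma-voom called 0. The 7 were Sema4g, Ephb3, Efnb2, Epha2 and Plxna3, higher, and Ntn4 and Epha4, lower. For each of the 7 the DESeq2 value was the lowest adjusted p among the alternatives. The highest was 0.614 to 0.644, each from the edgeR fit of only the libraries numbered 3 and 4 with group as the only term. The groups did not overlap for 12 members, 7 higher and 5 lower, or 26.7%, against 21.9% of all tested genes (10.5% higher and 11.3% lower). Of the 45, 30 had a positive log2 fold change (labelled iKO minus labelled WT) against 51.2% of all genes, with a median of 0.13 against 0.01. Without iKO 33, 24 of 45 were positive (53.3%, against 51.1% of all genes) with a median of 0.03. Without WT 3, 24 of 46 were positive (52.2%, against 51.9%) with a median of 0.06. Leaving out another library kept more of the excess: 68.1% without WT 2 (all genes 51.1%) and 66% without WT 4 (50.9%). The share was 60.4% without iKO 3 (all genes 50.2%) and 58.7% without iKO 4 (51%). The median size of the change without its sign was 0.38 on the log2 scale for the members and 0.21 for all tested genes. Among the 7 members with a size of at least 1, Ephb2, Robo2, Sema3d, Sema4g and Sema5a averaged at most 1.56 CPM. The others, Ntn4 and Plxna3, averaged 26.5 and 16 CPM. The part of low counts in this difference was not tested. As these are bulk samples, fewer cells of a type and less RNA per cell cannot be told apart.

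Among the ligands, Sema4g, a transmembrane class 4 semaphorin, had the lowest p of all members (chromosome 19, 44989101 to 45003397, plus strand, mm10). In the libraries labelled WT its level was 0.369 (WT 2), 0.215 (WT 3) and 0.313 CPM (WT 4), and in those labelled iKO it was 0.927 (iKO 3), 1.04 (iKO 4) and 1.09 CPM (iKO 33). All 3 libraries labelled iKO lay above all those labelled WT, though the gene was among the least abundant of those tested, with 8 to 93 counts per library. The log2 fold change was 1.82 (SE 0.35, edgeR adjusted p = 0.101; DESeq2 adjusted p = 0.0222). In the authors' deposited table it was 1.15 (SE 0.29, adjusted p = 0.0038), where DESeq2 here gave 1.84. The sizes of change in that table may be on another scale, so here and below they are not compared with those of edgeR.

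The netrin gene Ntn4 (chromosome 10, 93640681 to 93747207, plus strand) encodes a netrin that binds laminins of the basement membrane. WT 2, WT 3 and WT 4 measured 42.6, 42.9 and 21.7 CPM, while iKO 3, iKO 4 and iKO 33 measured 18.7, 15.8 and 17.6 CPM. The libraries labelled iKO were close to each other and below all those labelled WT, and WT 4 lay nearer to them than to the other libraries labelled WT. The log2 fold change was -1.04 (SE 0.27, edgeR adjusted p = 0.162; DESeq2 adjusted p = 0.00962). Without WT 4 it was -1.31 and passed in edgeR (adjusted p = 0.0477), the only fit without 1 library in which Ntn4 did. The authors' deposited table gives -0.85 (SE 0.24, adjusted p = 0.0101).

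Log2 fold changes of the ephrins ran from -0.79 to 0.46, and none passed in edgeR. Efnb2 encodes ephrin-B2, a ligand of EphB receptors and Epha4 (chromosome 8, 8617434 to 8661242, minus strand). It measured 31.1, 30.1 and 35.5 CPM in WT 2, WT 3 and WT 4 and 49.2, 40.4 and 43.3 CPM in iKO 3, iKO 4 and iKO 33. The groups did not overlap, and the log2 fold change was 0.46 (SE 0.13, edgeR adjusted p = 0.183; DESeq2 adjusted p = 0.0477). Efnb1, the most abundant ephrin per kb, stood at 149, 103 and 162 CPM against 129, 148 and 137, and its group means were 138 ± 30.8 and 138 ± 9.42 (SD, n = 3). Efna1, the ligand of Epha2, was 26.8 ± 4.21 against 33.6 ± 1.24 CPM, without overlap, at a log2 fold change of 0.33 (SE 0.14, edgeR adjusted p = 0.345). Efna2, at only 0.4 to 1.33 CPM, and Efna5 were lower without overlap (-0.79, SE 0.39 and -0.16, SE 0.11). Efna4, Efna3 and Efnb3 had values of 0.19 (SE 0.12), 0.33 (SE 0.53) and 0.13 (SE 0.31), and none of these ephrins passed.

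Of the 13 tested semaphorins 10 had positive values, against 51.2% of all tested genes, and Sema4g was the only one with an unadjusted p under 0.05 in edgeR. In at least 1 fit without 1 library the sign turned for Sema3c, Sema3f, Sema4b, Sema4d and Sema7a among the 10. It also turned for Sema4c and Sema4f, which had negative values. Sema3c stood at 363, 551 and 399 CPM in WT 2, WT 3 and WT 4 and at 352, 517 and 557 CPM in iKO 3, iKO 4 and iKO 33. The groups overlapped widely, with a log2 fold change of 0.12 (SE 0.22). The 4 tested class 3 semaphorins ranged from 0.12 to 1.01, the upper value that of Sema3d at under 0.4 CPM. The 6 class 4 semaphorins, all tested, ranged from -0.38 (Sema4c) to 1.82 (Sema4g). Sema5a had the largest negative value of all tested members, -1.56 (SE 0.74, edgeR adjusted p = 0.385), with levels of 1.52, 0.57 and 3.16 CPM against 0.416, 1.07 and 0.294 that overlapped between groups. The 3 Slits differed by 0.10 to 0.45. The most abundant of them, Slit1, spread more within groups than between them (7.79, 10.6 and 3.13 CPM against 14.5, 4.49 and 10.5). Its log2 fold change of 0.45 was 0.06 without iKO 3 and 0.07 without WT 4, but 0.86 without WT 3 and 0.79 without iKO 4.

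Among the receptors, the Eph genes with the lowest p differed in opposite directions. Epha4, a receptor that binds ephrins of both classes (chromosome 1, 77367185 to 77515088, minus strand), measured 62.7, 69.9 and 63.3 CPM in WT 2, WT 3 and WT 4 and 45.4, 39.3 and 52.2 CPM in iKO 3, iKO 4 and iKO 33. Every library labelled iKO was below every one labelled WT, at a log2 fold change of -0.52 (SE 0.14, edgeR adjusted p = 0.17; DESeq2 adjusted p = 0.0292). Epha2 (chromosome 4, 141301240 to 141329384, plus strand) was higher, with 147, 126 and 175 CPM against 219, 268 and 189 CPM. The closest libraries were WT 4 and iKO 33, and the log2 fold change was 0.59 (SE 0.18, edgeR adjusted p = 0.195; DESeq2 adjusted p = 0.0497). Ephb3, an ephrin-B receptor known for cell sorting in epithelia (chromosome 16, 21204755 to 21223305, plus strand), stood at 46, 42.1 and 37.1 CPM against 72.2, 56.5 and 55.3 CPM. Its groups did not overlap either, with a log2 fold change of 0.55 (SE 0.15, edgeR adjusted p = 0.176; DESeq2 adjusted p = 0.035). In the authors' deposited table Epha4 (-0.48, adjusted p = 0.0361) and Ephb3 (0.51, adjusted p = 0.0397) were past 0.05, and Epha2 (0.53, adjusted p = 0.0643) and Efnb2 (0.43, adjusted p = 0.0554) were not. With Sema4g and Ntn4, these 2 made up the 4 members past 0.05 there. Epha1 (-0.28, SE 0.20), Ephb4 (-0.25, SE 0.27) and the kinase-dead Ephb6 (-0.73, SE 0.39) had negative values with overlapping groups. Ephb2 had a value of 1.36 (SE 0.93), with levels from 0.076 CPM in WT 3 to 3.31 CPM in iKO 4.

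Plxna3, a class A plexin that works with neuropilins, lies on the X chromosome (74329066 to 74344689, plus strand). WT 2 and WT 4 measured 10.4 CPM each and WT 3 1.94 CPM, while iKO 3, iKO 4 and iKO 33 measured 24.5, 25.1 and 23.8 CPM. The libraries labelled iKO were nearly equal and WT 3 stood far below the other 2 of its group. The log2 fold change was 1.71 (SE 0.56, edgeR adjusted p = 0.237; DESeq2 adjusted p = 0.0251). Without WT 3 it was 1.23 and passed in edgeR (adjusted p = 0.0465), the only fit without 1 library in which Plxna3 did. Sex cannot be told apart from the label for this X-linked gene: the 374 tested genes of chromosome X had a median log2 fold change of 0.09, and 42 of them were higher and 20 lower at an unadjusted p under 0.05. Efnb1, which also lies on the X chromosome, had a value of 0.00 (SE 0.18). The authors' deposited table gives Plxna3 a log2 fold change of 0.99 (SE 0.30) and no p-value, where DESeq2 here gave 1.7.

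The other plexins and the co-receptors were closer to 0. Plxnb1 (chromosome 9, 109095389 to 109119917, plus strand), the receptor of Sema4d, was 141, 149 and 122 CPM in the libraries labelled WT and 120, 110 and 97.7 CPM in those labelled iKO, in the order WT 2, WT 3, WT 4 and iKO 3, iKO 4, iKO 33. WT 4 and iKO 3 nearly met, and the log2 fold change was -0.33 (SE 0.13, edgeR adjusted p = 0.295; DESeq2 adjusted p = 0.23). Plxnb2, at 368, 357 and 361 CPM against 410, 394 and 383 CPM, did not overlap between groups, with a log2 fold change of 0.13 (SE 0.09, edgeR adjusted p = 0.574). Plxna2 stood at -0.79 (SE 0.37) and Plxna1 at -0.10 (SE 0.17), both with overlap. The neuropilins overlapped too: Nrp1 was 157, 138 and 97.3 CPM against 96.1, 143 and 115 CPM (-0.15, SE 0.22), and Nrp2 was 37.8, 26.5 and 45.9 CPM against 33.1, 78.2 and 48.1 CPM (0.53, SE 0.34). Unc5b, the netrin receptor with a death domain, was 3.96, 4.61 and 1.73 CPM against 7.07, 3.6 and 7.51 CPM (0.82, SE 0.44). Robo3, the most abundant Robo gene per kb, was 1.15, 0.95 and 1.36 CPM against 0.991, 1.98 and 1.59 CPM (0.41, SE 0.36). None of these passed in edgeR or DESeq2. The differences of Nrp2, Unc5b and Robo3 varied with the library left out. Nrp2 ran from 0.15 without iKO 4 to 0.78 without iKO 3, and Robo3 from 0.18 to 0.63 without the same libraries. Unc5b ran from 0.48 without WT 4 to 1.1 without WT 3.

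**Figure D2:**
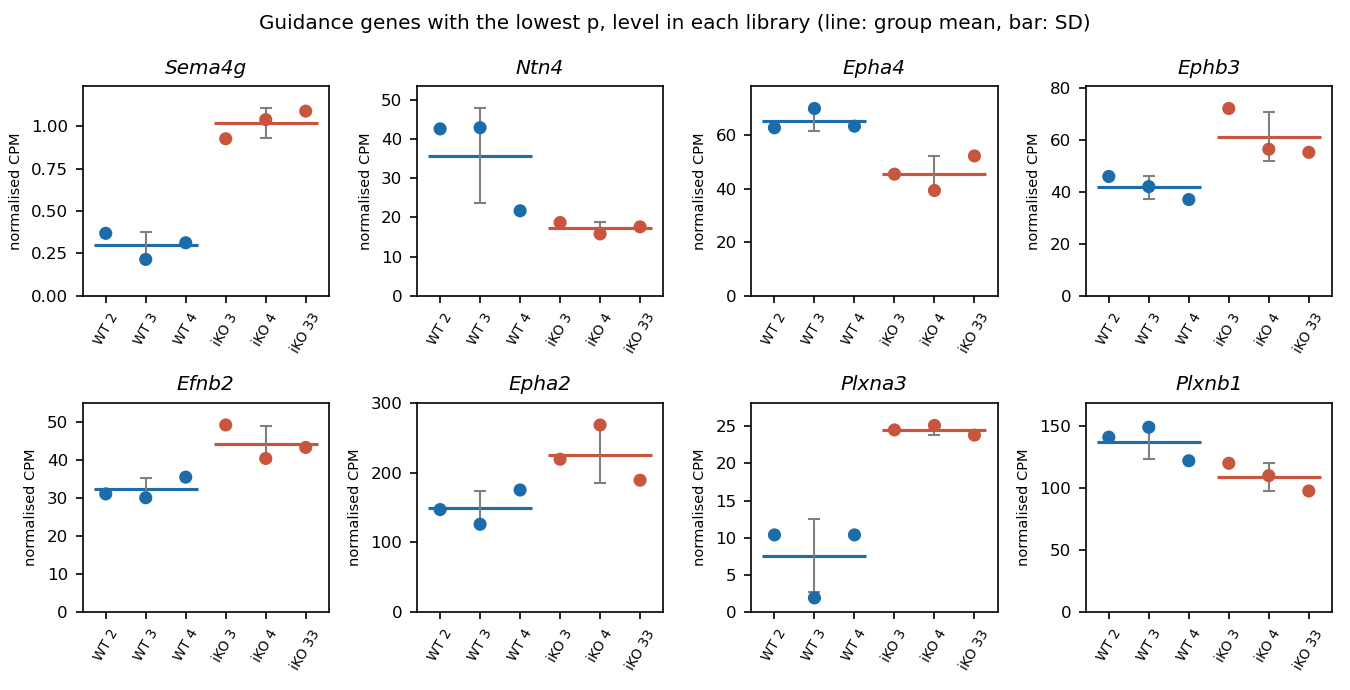
Normalised CPM in each library for the 8 guidance genes with an unadjusted edgeR p under 0.05; points are libraries (blue, labelled WT; red, labelled iKO), lines group means and grey bars the SD over 3 libraries. In each panel the points of the groups do not overlap; WT 4 lies low for Ntn4 and WT 3 for Plxna3.

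**Figure D3:**
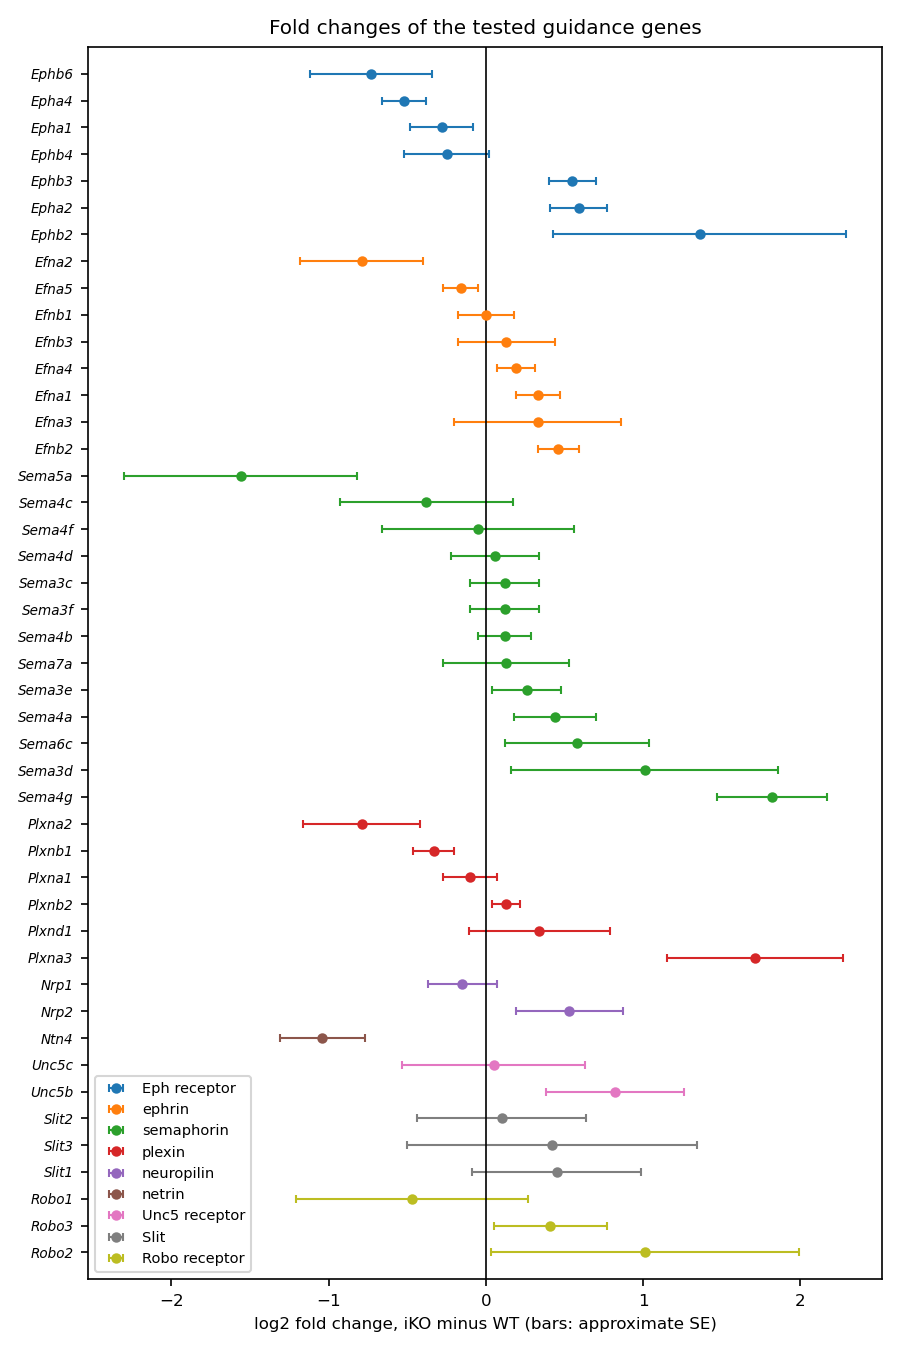
Log2 fold change of the 45 tested guidance genes, libraries labelled iKO minus those labelled WT, with bars for the approximate SE and colours for the family. Sema4g (1.82) and Plxna3 (1.71) lie farthest right and Sema5a (-1.56) farthest left, and each family with 6 or more tested genes has values on both sides of 0.

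The sequences before the start sites of Ntn4, Epha4, Ephb3 and Efnb2 are shown because they are, after Sema4g, the members with the lowest p. They come from RefSeq (GRCm38.p6, the mm10 build), cover up to 250 bases before the start and leave out bases inside GENCODE exons. The RefSeq start used for Ntn4 lies inside the GENCODE span given above, downstream of its edge. For Sema4g less than 150 bases were left, so it is not shown. Capitals mark a CCAAT box (CCAAT) or a GC box (GGGCGG), each searched on both strands. No match of one overlapped a match of the other in these sequences.
Ntn4, chr10:93640799-93641048, plus strand: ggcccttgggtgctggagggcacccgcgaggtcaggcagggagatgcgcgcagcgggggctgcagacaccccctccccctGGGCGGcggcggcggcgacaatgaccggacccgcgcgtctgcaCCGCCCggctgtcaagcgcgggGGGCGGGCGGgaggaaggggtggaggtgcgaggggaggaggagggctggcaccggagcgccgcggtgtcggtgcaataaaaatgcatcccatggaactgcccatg
Epha4, chr1:77515089-77515279, minus strand: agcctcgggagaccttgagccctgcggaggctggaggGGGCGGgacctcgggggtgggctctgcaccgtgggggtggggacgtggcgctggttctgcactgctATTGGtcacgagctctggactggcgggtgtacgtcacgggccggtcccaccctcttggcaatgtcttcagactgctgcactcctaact
Ephb3, chr16:21204545-21204754, plus strand: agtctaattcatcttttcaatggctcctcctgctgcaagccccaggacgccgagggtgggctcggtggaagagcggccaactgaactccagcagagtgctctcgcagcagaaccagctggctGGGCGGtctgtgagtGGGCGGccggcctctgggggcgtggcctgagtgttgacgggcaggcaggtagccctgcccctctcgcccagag
Efnb2, chr8:8661243-8661492, minus strand: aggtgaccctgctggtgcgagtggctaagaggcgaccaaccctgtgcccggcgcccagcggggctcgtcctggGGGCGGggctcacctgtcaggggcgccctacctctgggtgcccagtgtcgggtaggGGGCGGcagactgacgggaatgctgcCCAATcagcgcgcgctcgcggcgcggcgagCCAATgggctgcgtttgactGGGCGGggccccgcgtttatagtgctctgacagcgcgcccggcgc

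Over the full 250 bases before the start, 8 of the 8 members with an unadjusted p under 0.05 held a GC box and 2 a CCAAT box. Of the 41 tested members with a RefSeq promoter, 32 held a GC box and 9 a CCAAT box, against 60% and 36.5% of the 9366 tested genes with one. The 4 spellings of a GATA factor site that were searched on both strands (AGATAA or AGATAG, and the same starting with T, TGATAA or TGATAG) were found before 3 of the 41 members and before 0 of the 8, against 16.6% of the tested genes. A match is a description of letters in this window.

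The libraries numbered 4 stood apart from the others in the same way in both groups. This pattern was chosen after the values were seen. Among the 45 tested members, 10 were lowest in WT 4 among the libraries labelled WT and lowest in iKO 4 among those labelled iKO (Efna2, Efna3, Ephb6, Ntn4, Plxna2, Robo2, Sema4a, Slit1, Slit3 and Unc5b). Another 13 were highest in WT 4 and in iKO 4 (Efna1, Efnb1, Epha2, Ephb2, Nrp2, Robo3, Sema3e, Sema4b, Sema4c, Sema4d, Sema4f, Sema5a and Sema6c). Over the 45 members the deviations of WT 4 and iKO 4 from their group means correlated at 0.736, against 0.661 over all tested genes, which are not independent points. Together the members that were lowest or highest in both were 51.1% of the tested members, against 37.3% of all tested genes. Efna3, for example, measured 30.7, 48.7 and 16.9 CPM in WT 2, WT 3 and WT 4 and 65.6, 17.6 and 38.2 CPM in iKO 3, iKO 4 and iKO 33. Plxna2 followed the same course, with 41.5, 54.4 and 24.1 CPM and 31.1, 14.2 and 24.3 CPM, as did Ephb6 with 28.9, 32.9 and 15.2 CPM and 20.3, 8.58 and 17.5 CPM. Sema4f went the other way, with 1.84, 1.51 and 7.02 CPM and 2.49, 4.53 and 3 CPM. For these genes the spread within a group was as large as the difference between groups or larger. The labels do not say what the number 4 stands for.

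**Figure D4:**
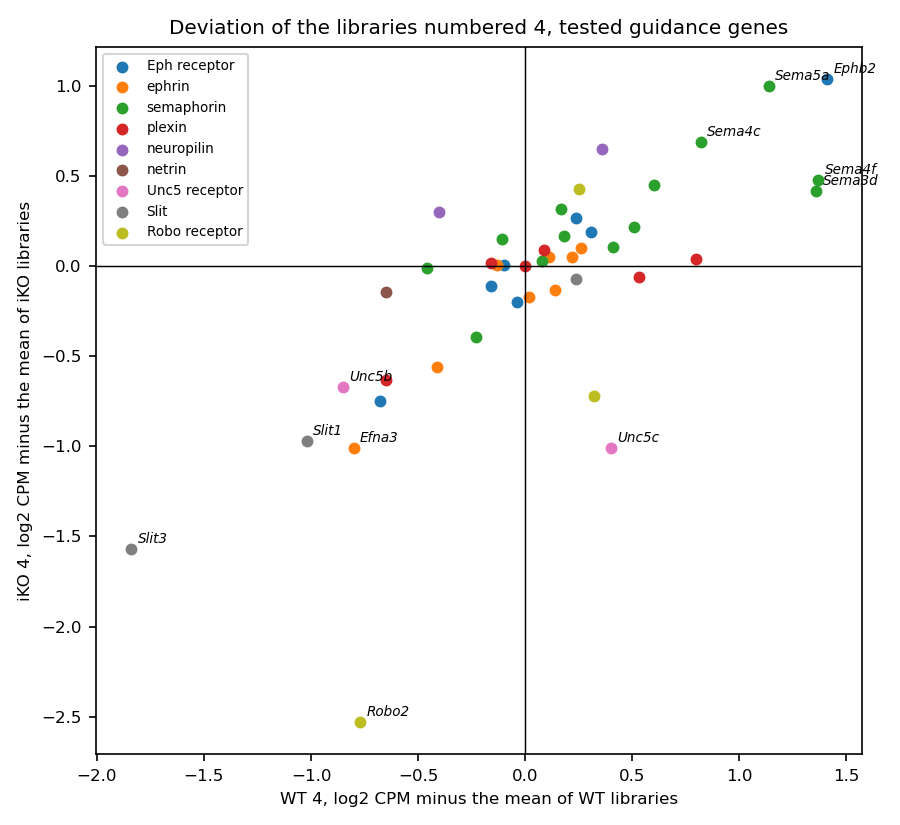
For each of the 45 tested guidance genes, the deviation of WT 4 from the mean of the libraries labelled WT (horizontal) and of iKO 4 from the mean of those labelled iKO (vertical), in log2 CPM, coloured by family. Most points lie along the rising diagonal, with Slit3, Slit1 and Efna3 low and Ephb2, Sema5a and Sema4c high in both libraries, while Unc5c, Robo1 and Nrp1 lie on opposite sides of 0.

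Co-receptors and effectors of these pathways, taken from 4 lists, had no member past an adjusted p of 0.05 in edgeR either. Their counts below stand against 15% of all tested genes at an unadjusted p under 0.05 and 6.12% called by DESeq2. Of 11 netrin receptor, co-receptor and related ligand genes outside the families, 5 were tested, 2 higher and 3 lower (median -0.09). Among them 2 had an unadjusted p under 0.05 and 1 was called by DESeq2 (all genes 15% and 6.12%). That gene was Rgma, a membrane-anchored ligand of neogenin, at 5.99, 9.57 and 4.12 CPM in WT 2, WT 3 and WT 4 and 1.47, 1.24 and 1.98 CPM in iKO 3, iKO 4 and iKO 33. The groups did not overlap, and the log2 fold change was -2.07 (SE 0.38, edgeR adjusted p = 0.0863; DESeq2 adjusted p = 3.76e-05). The adenosine receptor gene Adora2b had the next lowest p (0.61, SE 0.19), and neogenin itself (Neo1) stood at -0.29 (SE 0.16).

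Of 28 semaphorin and plexin partners, 24 were tested, 14 higher and 10 lower (median 0.03), with 5 at an unadjusted p under 0.05 and 4 called by DESeq2 (all genes 15% and 6.12%). The lowest p values were those of Mst1r, a receptor tyrosine kinase related to Met (26.2, 21.5 and 26.6 CPM against 49.7, 41.1 and 36.4 CPM; 0.78, SE 0.16, edgeR adjusted p = 0.109), and Farp2, a guanine nucleotide exchange factor (-0.71, SE 0.19). Met itself stood at -0.75 (SE 0.21).

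Of 23 Eph and ephrin effectors, 22 were tested, 12 higher and 10 lower (median 0.11), with 5 at an unadjusted p under 0.05 and 1 called by DESeq2 (all genes 15% and 6.12%). Chn2, which encodes the Rac-inactivating beta-chimaerin, measured 4.06, 3.33 and 4.44 CPM in WT 2, WT 3 and WT 4 and 0.256, 0.244 and 0.741 CPM in iKO 3, iKO 4 and iKO 33. It was lower in every library labelled iKO, with a log2 fold change of -3.18 (SE 0.49, edgeR adjusted p = 0.0609; DESeq2 adjusted p = 1.75e-07). Kalrn, an exchange factor for Rac, had the next lowest p (-1.24, SE 0.33).

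Of 20 Slit and Robo partners, all tested, 7 were higher and 13 lower (median -0.24), with 3 at an unadjusted p under 0.05 and 1 called by DESeq2, no larger shares than the 15% and 6.12% of all genes. Flrt2, a membrane ligand of Unc5 receptors, measured 506, 486 and 305 CPM in WT 2, WT 3 and WT 4 and 141, 58.8 and 149 CPM in iKO 3, iKO 4 and iKO 33. The groups did not overlap, and the log2 fold change was -1.89 (SE 0.38, edgeR adjusted p = 0.106; DESeq2 adjusted p = 1.55e-05). Its relative Flrt3 had the next lowest p, at 84.7, 138 and 66.6 CPM against 48.3, 30.8 and 66 CPM (-0.99, SE 0.35). Flrt3 in iKO 33 nearly reached WT 4.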

How the data were processed

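RNA of 6 keratinocyte samples was sequenced from TruSeq v2 libraries, as the labels' protocols say. Per the submitters' processing notes, the authors used mm10 as the build and TopHat2, HTSeq, DESeq and DESeq2 as tools. Their versions, the annotation and the strand setting were not given in the sources used here. Deposited counts are whole numbers of reads per gene symbol, not normalised. The 5 HTSeq summary rows, 27.4% to 35.5% of all counts per library, were left out. The authors' deposited table gives a log2 fold change with its SE and p-values for the same comparison. Its fold changes may be on another scale than those fitted here.

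The members were taken by pattern from the gene symbols, and the members and lists were chosen with earlier results of these data known. Counts were fitted over the whole table in R 4.3.3 with edgeR 4.0.16 (filterByExpr with a minimum count of 10, TMM factors, glmQLFit and glmQLFTest with robust estimation, group as the only term, two-sided, Benjamini-Hochberg adjustment over all 12672 tested genes at 0.05). The SE is an approximation (size of the log2 fold change over the square root of F). Levels are normalised CPM on TMM-scaled library sizes, and levels per kb divide these by the exon length in GENCODE M21, where all 68 members were found. The deviations from group means use log2 CPM with a prior count of 2. DESeq2 1.42.0, limma-voom in limma 3.58.1, other scalings and filters, a replicate block and leaving out each library were alternatives, and leaving out genes of chromosomes X and Y was added after seeing the data. Members named with a value in every library were those with an unadjusted p under 0.05, the most abundant per kb and the lowest p of each family, and those without overlap that changed by at least 1 on the log2 scale. Other members named with values, all of which lie outside that rule, were chosen after their values were seen. In 1 simulation of this comparison with 12550 tested genes, 100 genes had a fold change of 2 and 100 a fold change of 4. These changed genes were drawn only from genes above a set mean level. The shares recovered therefore do not cover members of low level such as Sema4g (mean of 0.66 CPM). edgeR called 57 of the former, 94 of the latter and 17 genes falsely, and DESeq2 called 83, 96 and 60. With no change simulated (12533 genes), edgeR made 0 calls and DESeq2 33.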

Additional observations from a re-analysis of the deposited data

How the results depend on the processing

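No guidance gene was called in edgeR under any other scaling, filter or threshold tried, without robust estimation, without genes of chromosomes X and Y, or in limma-voom. DESeq2 called 7, and leaving out each library gave 0 to 1. The number of members with an unadjusted p under 0.05 was 7 to 12 over the fits without 1 library (14.9% to 25.5%, against 11.1% to 14.9% of all genes). With no filter on low counts, 46 of 66 tested members had a positive value (69.7%, against 51.6% of all genes), and without each library 24 to 32 did, with the lowest share, 52.2% against 51.9% of all genes, without WT 3. Over all genes, calls numbered 76 with no filter, 775 in DESeq2, 152 at an adjusted p under 0.10, and 7 to 31 without each library. In at least 1 fit without 1 library, the sign turned for 17 of the 45 members, with values of up to 1.01 (Robo2) in the fit of all libraries. Of the 16 members named by rule it turned for 3: Efnb1 stood at -0.02 with no scaling factors and between -0.17 and 0.12 without each library, Nrp1 between -0.33 and 0, and Sema3c between -0.01 and 0.32.

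Both groups have libraries numbered 3 and 4, whose deviations from the group means correlated at 0.297 and 0.661 over all tested genes. WT 2 and iKO 3, whose numbers differ, correlated at 0.325. With only 2 pairs of like number and no label that ties them, the numbers were not taken as a pairing. With the number as a replicate block in these 4 libraries, 0 members and 103 genes were called, and 18 of 46 tested members (39.1%, against 18.4% of all genes) had an unadjusted p under 0.05. The same libraries without the block gave 0 members and 4 genes called, with 6 of 46 members (13%) and 986 genes (7.75% of all genes) under 0.05. Under the block and without it, Nrp1 was at 0.02 and 0.02, and Sema3c at -0.14 and -0.13. Members with few counts, such as Sema4g or Sema3d, are limited by depth: 3 counts amount to 0.0353 to 0.138 CPM in a library.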

Other observations

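Several members with few reads had most of them in a single library. Of the 51 counts of the Eph receptor gene Epha7, 45 came from iKO 33, where it stood at 0.529 CPM, and no other library held more than 2. Robo2, a Slit receptor gene, stood at 4.4 CPM in iKO 33 and 0.156 in iKO 4, against 0.54 to 1.66 CPM in the libraries labelled WT. Ntn1 had 19 of its 28 counts in iKO 33, which is also the library with the most counts on genes (83337263). Relative to depth it stood at 0.224 CPM there, against 0.0889 in iKO 4, the next highest. Over the tested members, iKO 33 was the highest of its group for 33.3%, against 30% of all tested genes. Sema6a, which was not tested, stood at 0.461 and 0.768 CPM in WT 2 and WT 4 and at 0.0633 in WT 3, where Ephb2 and Plxna3 were also at their lowest.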
